A study of Chlamydomonas reinhardtii with 12 samples.

Results

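In the mean over 4 strains, a set of 194 gene models of the green alga Chlamydomonas reinhardtii were close to their light-oxic transcript level after 0.5 h of dark anoxia. After 6 h they were lower in each strain. They were selected on the measured values themselves. On the scale log2(RPKM + 1), the mean change at 0.5 h against light-oxic culture had to lie between -0.5 and 0.5, the change at 6 h had to be below 0 in each strain, and its mean had to correspond to a ratio of 0.42 or lower. RPKM counts reads relative to the length of the model and the depth of the library, so levels of different genes can be compared per length. Of 17301 models in the table, 14305 averaged 1 RPKM or more over the samples, and the 194 members are 1.36% of these. Another 311 models were as low at 6 h but had already moved beyond the limit at 0.5 h.

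The study sequenced RNA from 4 strains at 3 stages, 1 sample for each strain and stage, 12 samples in all. The strains were crr1dCys, crr1, crr1:CRR1 and the wild type CC-124. In crr1 the CRR1 gene is mutated, crr1:CRR1 is that mutant rescued with CRR1, and crr1dCys is the mutant rescued with a form known to lack the cysteine-rich end of the protein. Cultures grew in the light in TAP, an acetate medium. Light-oxic aliquots were returned to the growth conditions in flasks and harvested soon after. Dark-anoxic aliquots stood stirred in sealed bottles in a dark room for 0.5 h or 6 h. Light and oxygen were thus withdrawn together, and their shares in a change cannot be told apart. Both rescued strains derive from crr1, so the 3 crr1-derived strains are not independent of each other. No label gives replicate cultures. The p-values below rest on the spread left after strain and stage are both fitted, which need not equal that between cultures. The 4 strains stand in for replicates of a stage, and the 3 stages for replicates of a strain.

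When this alga loses light and oxygen it can no longer respire or photosynthesise, and it ferments its starch to organic acids, ethanol and hydrogen. CRR1 is the copper response regulator, a transcription factor with an SBP domain that switches on a group of genes when copper is short, and some of the same genes when oxygen is short. The genes described here are lower in dark anoxia, and none of the sources used here pairs their identifiers with a name or function. They are therefore given by model identifier, with no function.

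The 20 columns of the table held 12001000 to 18894000 reads each, as an upper bound read from the steps of the low values. At the lowest depth, 1 RPKM in a model of 1 kilobase rests on 12 reads. The samples of CC-124 and that of crr1 at 0.5 h had 1 column each. The other 8 samples had 2 columns, which were averaged and counted once. In 7 of these pairs Pearson's r across the 14305 models was between 0.981 and 0.991. In the remaining pair, crr1:CRR1 at 6 h, the columns of the series called TS1 and TS4 had r = 0.839. The TS4 column of that sample stands apart, took no part in choosing the members, and is left out of every value below unless it is named.

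At 0.5 h the members had moved little and mostly downwards. The median of the mean change was -0.21 log2 units over the 194 members, against 0.02 over all models tested, and members ranged from -0.50 to 0.46. The mean change was below 0 in 150 members and above 0 in 44. It was below 0 in all 4 strains in 87 members, above 0 in all 4 in 19, and of mixed sign in 88. The limit applied to the mean alone, and 105 members stayed within 0.5 log2 units in every strain. A single strain moved by 1 log2 unit or more in 3 members, which are named here after their values were seen. Cre11.g482700.t1.1 had a change of -1.11 in crr1, and Cre20.g759500.t1.2 one of -1.37 in CC-124. Both changes rest on 1 column at 0.5 h, which in crr1 is set against the mean of 2 light-oxic columns. Cre16.g685000.t1.1 had levels in CC-124 of 5.97, 18.8 and 1.76 RPKM in light-oxic culture, at 0.5 h and at 6 h, a transient excess that the other strains did not show, with changes of -0.35 to 0.20 at 0.5 h.

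By 6 h every member was below its own 0.5 h level in every strain, and the median step between these times was -1.32 log2 units. The mean change against light-oxic culture had a median of -1.47 over the members, against -0.04 over all models tested. It reached -2 or lower in 13 members and stayed above -1.5 in 102, so most of the set lies close to the limit. All of these values follow from the choice of members and carry no test. In RNA of whole cultures, fewer cells with a transcript and less of it in each cell cannot be told apart, and RPKM shows shares of the RNA, not amounts per cell. At 6 h against light-oxic culture, 7.12% of models tested were called lower by limma (adjusted p below 0.05 and at least 1 log2 unit), and all 194 members were among them, which the rule largely fixed.

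The median level of a member in crr1dCys was 35.1, 30.6 and 12.9 RPKM in light-oxic culture, at 0.5 h and at 6 h. In crr1 it was 29.9, 26.7 and 10.4 RPKM at the same stages. In crr1:CRR1 it was 30.5, 29.0 and 7.53 RPKM, and in CC-124 it was 39.2, 33.0 and 12.7 RPKM. CC-124 had the highest median at the first 2 of these stages, and crr1:CRR1 had the lowest at 6 h. The median share of the light-oxic RPKM left at 6 h was 40.4% in crr1dCys, 34.1% in crr1, 24.6% in crr1:CRR1 and 31.2% in CC-124.

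**Figure D1:**
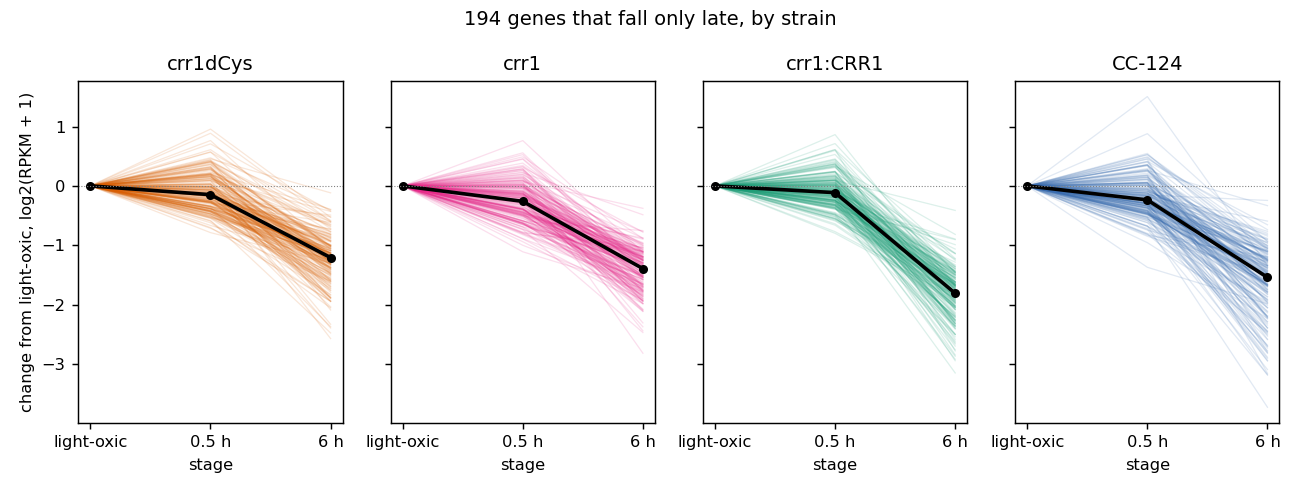
Change of each of the 194 members from its light-oxic level, on the scale log2(RPKM + 1), at the 3 stages, with 1 panel per strain. Thin lines are members and the black line is their median, which at 6 h is -1.21 in crr1dCys, -1.39 in crr1, -1.81 in crr1:CRR1 and -1.54 in CC-124.

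The members were abundant transcripts. Their mean light-oxic level had a median of 33.4 RPKM, against 6.55 RPKM over all models tested, with a range of 2.61 to 19720 RPKM. A level above 100 RPKM was found in 44 members, 22.7% of them, against 5.21% of all models tested. A level below 10 RPKM was found in 32 members, 16.5%, against 61.6% of all models. The pseudocount of 1 shrinks the changes of low models, so the rule itself favours higher levels. Of all RPKM in a sample, the 194 members held 6.09% in light-oxic culture, 5.15% at 0.5 h and 3.04% at 6 h in crr1dCys. In crr1 they held 6.38%, 5.34% and 2.31%, in crr1:CRR1 6.09%, 5.21% and 1.79%, and in CC-124 7.95%, 6.38% and 2.50%. None was listed at 0 at 6 h, and 8 were under 1 RPKM in all 4 strains.

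The lowest mean change belonged to Cre01.g024450.t1.1, at -2.78 ± 0.15 log2 units (SD over strains, n = 4). It had 35.4 RPKM in crr1dCys, 23.3 in crr1, 19.8 in crr1:CRR1 and 40.4 in CC-124 in light-oxic culture. At 0.5 h it had 36.4, 23.9, 16.8 and 32.6 RPKM in the same strains, and at 6 h 5.28, 2.68, 1.73 and 4.87 RPKM. Every 6 h sample lay below every earlier sample, and the 4 strains lost nearly the same share. Such evenness was not general.

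Cre15.g646150.t1.1 changed by -2.41 ± 0.70 (SD, n = 4). Its light-oxic level was 17.7 RPKM in crr1dCys, 15.4 in crr1, 13.4 in crr1:CRR1 and 14.4 in CC-124. In the same strains it had 21.9, 12.2, 12.4 and 8.28 RPKM at 0.5 h, and 5.16, 3.02, 1.12 and 0.703 RPKM at 6 h. The light-oxic levels were close together, whereas at 6 h both strains with full-length CRR1 were below both others. Cre12.g522950.t1.1 was spread more widely, at -2.28 ± 1.19 (SD, n = 4). It had 44.4 RPKM in crr1dCys, 38.2 in crr1, 36.5 in crr1:CRR1 and 47.3 in CC-124 in light-oxic culture. At 0.5 h these were 57.4, 25.6, 37.6 and 29.3 RPKM, and at 6 h 21.4, 11.8, 4.74 and 2.64 RPKM. The change in crr1dCys was -1.02 and that in CC-124 was -3.73, the lowest of any member in any strain. Cre02.g118600.t1.1 had 32.2 RPKM in crr1dCys, 24.9 in crr1, 23.6 in crr1:CRR1 and 28.0 in CC-124 in light-oxic culture. At 0.5 h it had 34.1, 14.6, 20.8 and 21.5 RPKM in these strains, and at 6 h 12.7, 6.39, 3.01 and 2.19 RPKM. At 6 h its 4 strains fell into the same order as those of Cre12.g522950.t1.1.

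Cre07.g338000.t1.1, Cre03.g178650.t1.1 and Cre02.g122400.t1.1 showed the same order of both full-length strains below both others at 6 h. Their mean changes were -2.25 ± 0.52, -2.16 ± 0.65 and -2.10 ± 0.46 (SD, n = 4 each). Cre03.g205950.t1.2 was even, at -2.11 ± 0.27 (SD, n = 4), with 4.26 RPKM left in crr1dCys, 4.78 in crr1, 3.95 in crr1:CRR1 and 2.12 in CC-124 from light-oxic levels of 16.8 to 21.2 RPKM. Cre03.g184250.t1.1 changed by -2.35 ± 0.68 (SD, n = 4). In light-oxic culture it had 48.3 RPKM in crr1dCys, 40.3 in crr1 and 50.6 in crr1:CRR1, but 12.8 RPKM in CC-124. It had 35.8, 33.2, 39.2 and 9.23 RPKM in these strains at 0.5 h, and 15.6, 8.86, 4.75 and 1.30 RPKM at 6 h, so CC-124 was lowest at every stage.

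Cre09.g392350.t1.1 was both among the lowest changes, at -2.36 ± 0.48 (SD, n = 4), and among the most abundant members. Its light-oxic level was 963 RPKM in crr1dCys, 947 in crr1, 996 in crr1:CRR1 and 1661 in CC-124. At 0.5 h these were 931, 1007, 1039 and 1797 RPKM, and at 6 h 183, 191, 128 and 485 RPKM. CC-124 was the highest strain at every stage, and no strain had moved by more than 0.11 log2 units at 0.5 h.

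**Figure D2:**
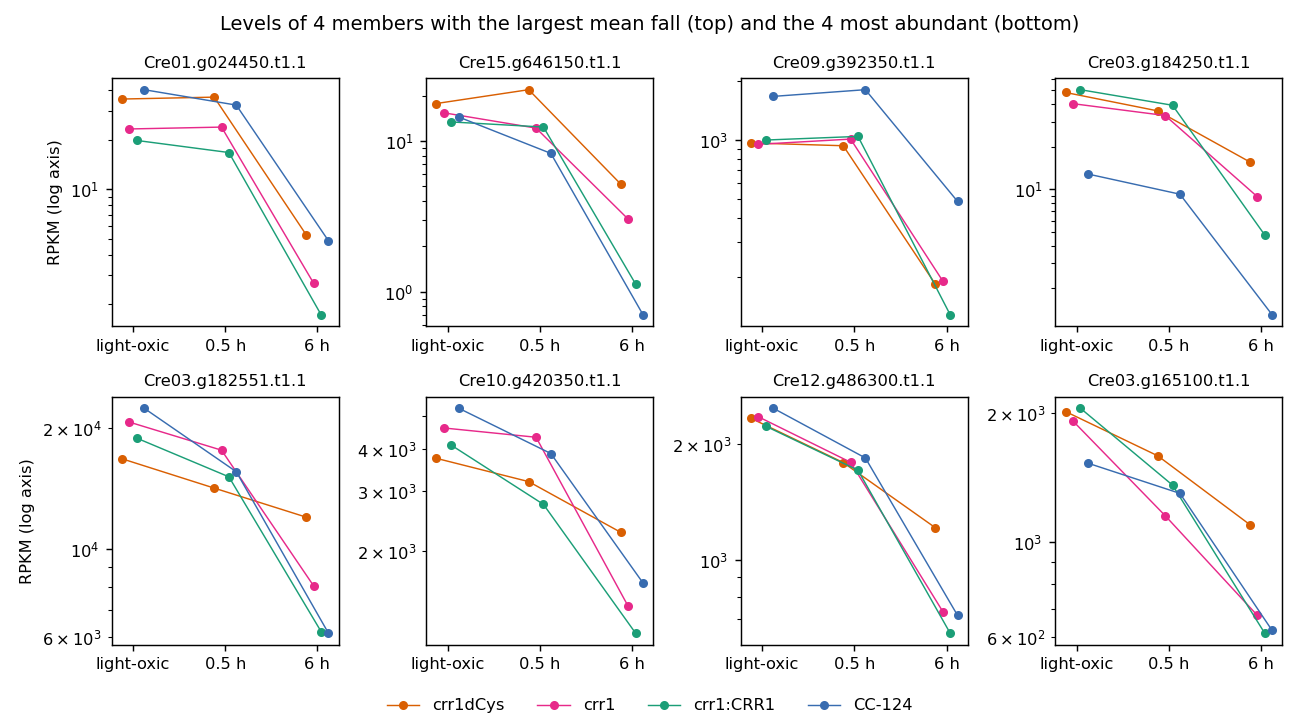
RPKM on a log axis at the 3 stages for 8 members, 1 coloured point per strain and stage, shifted sideways for legibility. The upper row holds the 4 members with the lowest mean change at 6 h, among them Cre01.g024450.t1.1, and the lower row the 4 most abundant, in which crr1dCys is the highest strain at 6 h.

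The most abundant members behaved differently in 1 strain. A light-oxic mean above 1000 RPKM was found in 13 members, 6.70% of the set, against 1.05% of all models tested, and they held 77.1% of the summed light-oxic RPKM of the set. In 12 of the 13 the change at 6 h was smallest in crr1dCys. The share of the light-oxic RPKM left at 6 h had a median over the 13 of 54.4% in crr1dCys, 34.9% in crr1, 29.8% in crr1:CRR1 and 29.0% in CC-124. It ranged from 19.1% to 71.4% in crr1dCys, from 20.1% to 44.1% in crr1, from 12.9% to 36.4% in crr1:CRR1 and from 24.2% to 40.7% in CC-124. Apart from Cre09.g392350.t1.1, each of the 13 kept a larger share in crr1dCys than in any other strain.

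Within each series the count was also 12 of 13, in the TS1 columns against crr1 and crr1:CRR1 and in the TS2 columns against crr1 and CC-124. Of all models tested, 28.6% had this order in TS1 and 19.7% in TS2. The count was 12 too after median of ratios scaling and after quantile normalization. These counts reuse the values that chose the members, so they are no separate check. This order was common among abundant genes at large. Of the 150 models tested with a light-oxic mean above 1000 RPKM, 72.0% had their highest 6 h change in crr1dCys, against 17.3% of all models tested, so it is no feature of the members alone. In the remaining 181 members the median change was -1.24 in crr1dCys, -1.39 in crr1, -1.82 in crr1:CRR1 and -1.52 in CC-124. In 12 of the 13 abundant members the mean change at 0.5 h was already below 0.

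Cre03.g182551.t1.1 was by far the most abundant. It had 16780 RPKM in crr1dCys, 20730 in crr1, 18900 in crr1:CRR1 and 22460 in CC-124 in light-oxic culture. At 0.5 h these were 14170, 17630, 15120 and 15570 RPKM, and at 6 h 11980, 8057, 6196 and 6136 RPKM. The level in crr1dCys was the lowest of the 4 strains in light-oxic culture and the highest at 6 h. Both of its crr1dCys columns at 6 h, 13090 RPKM in TS1 and 10870 RPKM in TS2, were above both crr1 columns, 8963 RPKM in TS1 and 7152 RPKM in TS2.

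Cre10.g420350.t1.1 had 3748 RPKM in crr1dCys, 4603 in crr1, 4098 in crr1:CRR1 and 5262 in CC-124 in light-oxic culture. At 0.5 h these were 3203, 4323, 2746 and 3873 RPKM, and at 6 h 2272, 1377, 1149 and 1614 RPKM. Its change in crr1dCys was -0.74, against -1.70 to -1.83 in the other strains. Cre12.g486300.t1.1 started at 2326 RPKM in crr1dCys, 2347 in crr1, 2219 in crr1:CRR1 and 2471 in CC-124. It had 1786, 1789, 1706 and 1836 RPKM in these strains at 0.5 h, and 1210, 734, 645 and 717 RPKM at 6 h. The 4 strains were nearly equal at the first 2 of these stages, and at 6 h crr1dCys alone stood higher.

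The other named abundant members followed this outline. Cre16.g687900.t1.1 had 1255 RPKM at 6 h in crr1dCys, against 611 to 723 RPKM in the other strains, and Cre06.g272650.t1.1 had 981 RPKM against 431 to 638 RPKM. Cre03.g165100.t1.1 had 1099 RPKM in crr1dCys and 613 to 675 RPKM elsewhere, and Cre07.g344950.t1.1 had 946 RPKM and 521 to 648 RPKM. Cre12.g560950.t1.1 had 811 RPKM in crr1dCys and 412 to 482 RPKM elsewhere. In light-oxic culture these 5 genes lay between 1339 and 2057 RPKM in all strains. Cre12.g508750.t1.1 had the lowest mean change of the 10 most abundant members, -1.89 ± 0.40 (SD, n = 4), with 646 RPKM in crr1dCys and 329 to 373 RPKM elsewhere at 6 h. Cre08.g380250.t1.1 had 921 RPKM in crr1dCys, 723 in crr1, 573 in crr1:CRR1 and 266 in CC-124 at 6 h, and was lowest in CC-124 in light-oxic culture too, at 1019 RPKM against 1572 to 1638 RPKM.

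**Figure D3:**
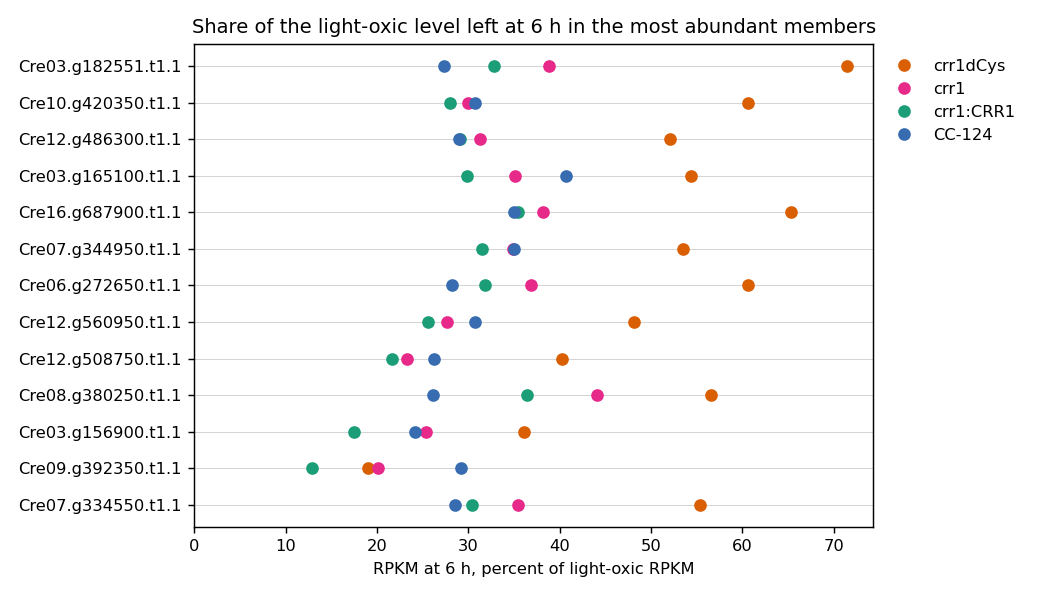
RPKM at 6 h as a percent of the light-oxic RPKM in the 13 members with a light-oxic mean above 1000 RPKM, ordered from the most abundant at the top, 1 point per strain. The crr1dCys point lies farthest right in 12 of the 13 rows, at up to 71.4%.

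By the median over the set, crr1dCys and crr1 kept a larger share than the strains with full-length CRR1. The medians of crr1 (34.1%) and CC-124 (31.2%) lay close together. Member by member, crr1dCys and crr1 both changed less than both crr1:CRR1 and CC-124 in 93, so most members did not show this order. The 93 are 47.9% of the set, against 15.9% of all models tested and 24.1% of the 311 other models that were as low at 6 h. The opposite order, with crr1dCys and crr1 both changing more, was found in 8 members, 4.12%, against 21.5% of all models and 12.2% of the 311. This count was made after the data had been seen, it uses the values that chose the members, and it has no test. The 6 h change was the highest of the 4 strains, that is the smallest decrease, in crr1dCys in 98 members, 50.5%, against 17.3% of all models tested. It was highest in crr1 in 30 members, 15.5% against 20.1%, in crr1:CRR1 in 10, 5.15% against 17.7%, and in CC-124 in 56, 28.9% against 44.9%. It was the lowest of the 4 in crr1dCys in 10 members, 5.15%, against 39.2% of all models. It was lowest in crr1 in 9 members, 4.64% against 10.6%, in crr1:CRR1 in 107, 55.2% against 26.0%, and in CC-124 in 68, 35.1% against 24.3%. The 311 other models also had their lowest median in crr1:CRR1, so this is no feature of the members alone. Their medians were -1.53 in crr1dCys, -1.64 in crr1, -1.85 in crr1:CRR1 and -1.52 in CC-124.

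CC-124 was sequenced in the TS2 series alone and crr1:CRR1 in TS1 and TS4 alone, so no series holds all 4 strains. Within TS1, crr1dCys and crr1 both changed less than crr1:CRR1 in 160 members, 82.5%, against 28.3% of all models tested. The medians there were -1.28 in crr1dCys, -1.40 in crr1 and -1.84 in crr1:CRR1. Over all models tested the TS1 medians were -0.18 in crr1dCys, -0.14 in crr1 and -0.06 in crr1:CRR1. Within TS2, crr1dCys and crr1 both changed less than CC-124 in 97 of the 194 members, against 32.1% of all models. The members' medians there were -1.18 in crr1dCys, -1.45 in crr1 and -1.54 in CC-124. Those over all models tested were -0.11, 0.10 and 0.03 in the same strains, so crr1 lay above CC-124 in models at large too. The order was more frequent against crr1:CRR1 than against CC-124, and this difference was not tested. Of the crr1:CRR1 columns at 6 h, the rule used that of TS1 alone, and CC-124 has TS2 columns only. The counts and medians of members within a series therefore reuse the values that chose the members, and are no separate check. No share within a series was taken for the other models that were as low at 6 h.

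**Figure D4:**
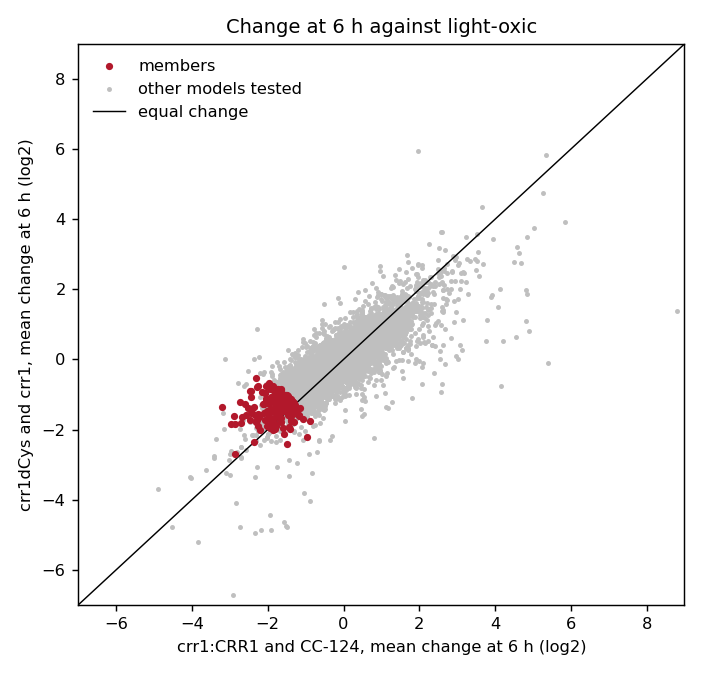
Mean change at 6 h against light-oxic culture, on the scale log2(RPKM + 1), in crr1dCys and crr1 (vertical axis) and in crr1:CRR1 and CC-124 (horizontal axis). Red points are the 194 members, grey points the other models tested, and the line marks equal change. Most members lie above the line, where crr1dCys and crr1 changed less.

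The mean change of the 3 crr1-derived strains was above that of CC-124 by 1 log2 unit or more in 26 members, 13.4%, against 3.10% of all models tested. In 22 of these 26, crr1:CRR1 also lay below both crr1dCys and crr1, so they belong to the 93 above. Cre02.g130150.t1.1, chosen here after its values were seen, had 142 RPKM in crr1dCys, 66.6 in crr1, 34.0 in crr1:CRR1 and 22.8 in CC-124 at 6 h, from light-oxic levels of 117 to 175 RPKM. Its changes ran from -0.12 in crr1dCys to -2.89 in CC-124, and crr1dCys had hardly moved. The mean change of the crr1-derived strains was below that of CC-124 by as much in 3 members, 1.55%, against 3.07% of all models. These were Cre12.g554100.t1.2, with a difference of -1.79, and Cre17.g731200.t1.2 and Cre04.g222250.t1.1, both named after their values were seen, with differences of -1.28 and -1.33. In CC-124, Cre12.g554100.t1.2 had only 1.24 RPKM in light-oxic culture and 0.889 RPKM at 6 h. At this level, near the pseudocount of 1, little decrease could be seen in CC-124. The 8 members in which crr1dCys and crr1 both changed more included Cre31.g779650.t1.2 and Cre31.g779700.t1.2, picked after their values were seen. The first had 9.06 RPKM in crr1dCys, 23.8 in crr1, 23.8 in crr1:CRR1 and 49.1 in CC-124 at 6 h, with light-oxic levels of 50.1, 93.2, 72.5 and 158 RPKM in these strains.

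The only library that took no part in the choice was the 6 h TS4 column of crr1:CRR1, and it too was low in most members. Set against the TS4 light-oxic column of the same strain, which the rule did use, 190 of the 194 members were lower. They were lower by 1 log2 unit or more in 169 members, 87.1% of the set, against 18.6% of all models tested and 78.1% of the 311 other models. The median difference was -2.28 over the members, from -6.34 to 1.35, against 0.07 over all models, and in the TS1 columns of the same strain it was -1.84. Against the TS4 column at 0.5 h, 186 members were lower, with a median of -2.09. With 1 library on each side there is no test.

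The TS4 column at 6 h, which stands apart, went further down than TS1 in 123 of the 194 members and in 43.2% of all models tested. Each change was taken from the light-oxic column of its own series. No share was taken for the 311 other models that were as low at 6 h. The SD over members of the difference between repeat columns was 1.33 log2 units in crr1:CRR1 at 6 h and 0.22 to 0.49 in the other 7 pairs. Among the abundant members the gap was wide, with Cre03.g182551.t1.1 at 1598 RPKM in TS4 and 6196 RPKM in TS1, and Cre16.g687900.t1.1 at 42.2 RPKM in TS4 against 611 RPKM in TS1. In 4 members, named after their values were seen, the TS4 column at 6 h was above its light-oxic partner. Cre26.g772632.t1.1 had 43.7 RPKM at 6 h and 19.4 RPKM in light-oxic culture, and Cre08.g362100.t1.2 had 97.4 and 37.6 RPKM. Cre06.g277100.t1.1 had 7.07 RPKM at 6 h and 4.17 RPKM in light-oxic culture, and Cre06.g293750.t1.1 had 16.5 and 13.4 RPKM. In the other 6 h samples these 4 genes lay between 0.483 and 17.4 RPKM and were below their light-oxic level in every strain, as the rule requires.

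**Figure D5:**
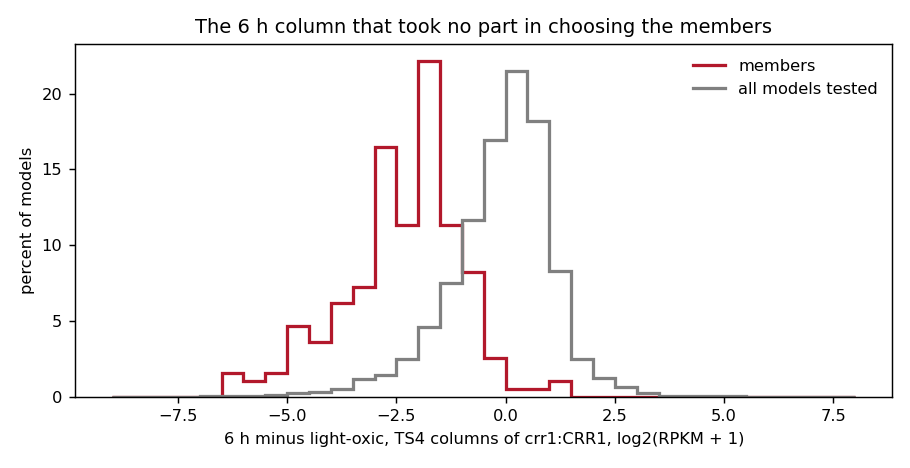
Difference between the 6 h and light-oxic TS4 columns of crr1:CRR1, on the scale log2(RPKM + 1), as the percent of models in steps of 0.5, for the 194 members (red) and for all 14305 models tested (grey). The median is -2.28 for the members and 0.07 for all models.

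Levels averaged over the 3 stages were compared between strains, a contrast the rule did not use. It was tested with limma on all 12 samples with stage as a block and 6 residual degrees of freedom, and p-values were adjusted by the Benjamini-Hochberg method over the 14305 models. The 6 h and light-oxic values that the rule used enter these averages. Between the mean of the 3 crr1-derived strains and CC-124, 12 members were called lower, 6.19% of the set, against 3.49% of all models tested. Called higher were 6 members, 3.09%, against 3.99% of all models. At an unadjusted limma p below 0.05 there were 109 members, 56.2%, close to the 53.1% of all models. The median difference was -0.29 log2 units over the members, against -0.12 over all models.

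This split depended on how the samples were scaled. After median of ratios scaling 5 members were lower and 8 higher, with medians of -0.16 over the members and -0.01 over all models. After quantile normalization 7 were lower and 7 higher, with medians of -0.21 and -0.04. Without the 6 h samples 7 were lower and 7 higher. CC-124 is also the strain that occurs in TS2 alone, and with the TS2 columns alone 7 were lower and 10 higher. Without stage as a block, 1 was lower and 2 were higher.

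Cre02.g080600.t1.1 was furthest below CC-124, with 4.71 RPKM in crr1dCys, 7.19 in crr1, 14.3 in crr1:CRR1 and 39.7 in CC-124 in light-oxic culture. At 0.5 h it had 4.02, 4.99, 7.66 and 21.6 RPKM in these strains, and at 6 h 1.39, 2.41, 2.56 and 13.5 RPKM. CC-124 was the highest strain at each stage. The level in crr1:CRR1 rests on light-oxic columns far apart, the TS1 column at 2.33 RPKM and the TS4 column at 26.2 RPKM, and in TS1 alone this strain had 2.56 RPKM at 6 h. With the TS1 columns alone, the mean 6 h change of this gene over the 3 crr1-derived strains was -0.83, against -1.32 over the 4 strains with all series. The crr1-derived strains differed from it by -2.20 log2 units (SE 0.12, limma adjusted p = 4.35e-07), and the adjusted p was between 4.35e-07 and 0.00524 over all settings tried. Cre08.g378376.t1.1 had 293 RPKM in crr1dCys, 396 in crr1, 356 in crr1:CRR1 and 985 in CC-124 in light-oxic culture. At 0.5 h these were 250, 365, 337 and 836 RPKM, and at 6 h 91.0, 77.6, 84.4 and 307 RPKM. Its difference was -1.60 (SE 0.14, limma adjusted p = 9.27e-06), and its 3 crr1-derived strains lay close together. Cre09.g407600.t1.1 had a difference of -1.45 (SE 0.16, limma adjusted p = 6.91e-05), with 12.2 RPKM in CC-124 at 6 h and 2.54 to 3.27 RPKM in the crr1-derived strains.

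Higher than in CC-124 were Cre12.g554100.t1.2, Cre03.g184250.t1.1 and Cre07.g352550.t1.1, the last with 83.9 RPKM in crr1dCys, 55.9 in crr1, 46.5 in crr1:CRR1 and 16.1 in CC-124 in light-oxic culture. Its difference was 1.68 (SE 0.16, limma adjusted p = 1.83e-05), and that of Cre03.g184250.t1.1 was 1.89 (SE 0.21, limma adjusted p = 7.20e-05). Without stage as a block the adjusted p of Cre03.g184250.t1.1 was 0.133, and over all settings it was between 2.15e-05 and 0.133.

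Between crr1 and crr1:CRR1, 1 member was called higher, against 0.0559% of all models tested, and 0 were called lower, against 0.119% of all models. At an unadjusted limma p below 0.05 there were 8 members, 4.12%, against 9.52% of all models. The member called was Cre12.g554100.t1.2, whose level varied widely between strains. In light-oxic culture it had 18.2 RPKM in crr1dCys, 47.1 in crr1, 6.85 in crr1:CRR1 and 1.24 in CC-124. At 0.5 h these were 11.7, 36.0, 4.18 and 1.01 RPKM, and at 6 h 2.51, 11.6, 0.947 and 0.889 RPKM. Its difference between crr1 and crr1:CRR1 was 2.89 (SE 0.33, limma adjusted p = 0.00779). Over the settings tried the adjusted p was between 0.000139 and 0.58, and it was 0.085 without the light-oxic samples and 0.552 without the 0.5 h samples. Its light-oxic columns of crr1:CRR1 were also far apart, with 2.09 RPKM in TS1 and 11.6 RPKM in TS4. Its difference between the crr1-derived strains and CC-124 was 2.29 (SE 0.27, limma adjusted p = 8.52e-05).

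Between crr1dCys and crr1:CRR1, 2 members were called higher, 1.03% of the set, against 0.224% of all models tested. Called lower were 0 members, against 0.217% of all models. At an unadjusted limma p below 0.05 there were 72 members, 37.1%, against 16.7% of all models. The median difference was 0.32 over the members and -0.01 over all models, and 0.11 over the members without the 6 h samples. The smaller 6 h change of crr1dCys, which the rule used, therefore enters this average. Cre01.g024450.t1.1 was higher by 1.01 (SE 0.12, limma adjusted p = 0.00311), close to the limit of 1 in size. Without the light-oxic samples its adjusted p was 0.0973, without the 0.5 h samples 0.119, and over all settings between 0.00207 and 1. Cre11.g483350.t1.2 was higher by 1.22 (SE 0.23, limma adjusted p = 0.0415), with 12.1, 16.4 and 7.14 RPKM in crr1dCys in light-oxic culture, at 0.5 h and at 6 h, and 6.21, 7.24 and 1.65 RPKM in crr1:CRR1. Without crr1 its adjusted p was 0.103, without the 6 h samples 0.242, and over all settings between 0.0131 and 1.

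A locus tag of the RefSeq assembly Chlamydomonas_reinhardtii_v5.5 matched 159 members, 82.0% of the set, against 76.8% of models tested. In this order of loci, 10 members stood in 5 pairs of direct neighbours. How many pairs a random set of models would hold was not counted, so this number has no background. Cre12.g526750.t1.1 and Cre12.g526800.t1.1 had 6 h means of 27.1 and 21.9 RPKM and light-oxic means of 65.7 and 89.1 RPKM. Cre03.g205950.t1.2, among the lowest changes, stood beside Cre03.g206000.t1.1, which changed by -1.52. The other pairs were Cre01.g010296.t1.1 with Cre01.g010300.t1.1, Cre04.g213050.t1.1 with Cre04.g213000.t1.1, and Cre07.g339200.t1.1 with Cre07.g339250.t1.1, with changes of -1.31 to -1.39 in all 6 members. Strand and overlap of neighbours could not be read from the table, and reads shared between them were not tested.

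The limits of the rule cut through a continuum. Just inside the limit for the mean change at 6 h lay Cre10.g464250.t1.1 at -1.2519, Cre16.g687900.t1.1 at -1.253 and Cre17.g705400.t1.1 at -1.2533. Just outside lay Cre05.g237750.t1.1 at -1.2465, Cre09.g393600.t1.1 at -1.2456 and Cre12.g527300.t1.1 at -1.2445. At the limit for 0.5 h, Cre16.g662300.t1.1 was inside at -0.4954 and Cre07.g319100.t1.2 outside at -0.503.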

How the data were processed

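RNA of 12 samples was sequenced on an Illumina instrument, per the labels' protocols. The authors deposited 1 table of 17301 models in 20 columns, read here as RPKM from the steps of its low values, since no header names the unit. The depth taken for each column made the length of 98.8% of 590 low models whole (tolerance 0.1 base), where trial depths averaged 20.0%. Bowtie is named per the submitters' processing notes. Models that overlap or are near copies of each other have uncertain values, because the build, annotation, counting and strand setting are not named in those notes or the labels. Columns were matched to samples by name, crr1:CRR1 and crr1 by elimination, and 0 columns were left without a sample.

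Values were taken as log2(RPKM + 1), which understates the change of low models, for models that averaged 1 RPKM or more. Repeat columns were averaged on the log2 scale, and printed RPKM levels are their arithmetic means. The rows of 1 locus were left out by the rule. Tests used limma 3.58.1 in R 4.3.3 with a mean-variance trend. They were tried only on data simulated with independent errors of the spread that the same fit gave. Such data cannot show how related strains, or stage changes that differ between strains, affect the tests. A call needs an adjusted p below 0.05 and at least 1 log2 unit. The fit holds stage and strain. Same-numbered samples are the same strain at each stage, and strain is therefore the block of the 6 h contrast. The members and the lists were chosen with earlier results of these data known. Models named are the 10 with the lowest mean change at 6 h, the 10 most abundant, the 3 on each side of the 6 h limit and up to 3 in each direction per strain contrast. Models at the 0.5 h limit, neighbour pairs and those marked in the text were chosen later. RefSeq gave locus tags without names, so lists of genes by function and promoter motifs could not be applied.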

Additional observations from a re-analysis of the deposited data

Results flagged for a closer look

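In 112 sets of 4 strain values of the 28 named members, 1 strain lay far from the other 3 in 16, by Dixon's criterion at the 95% level. Chance flags about 1 in 20 such sets, but this count cannot be read against that share. Sets of 1 gene are not independent, and some members were named because they differed between strains, among them Cre02.g080600.t1.1, Cre08.g378376.t1.1, Cre09.g407600.t1.1 and Cre12.g554100.t1.2. The strain apart was crr1dCys in 7 sets and CC-124 in 7.

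By Dixon's criterion, crr1dCys stood apart in the 6 h change of 3 named members, each with less change than in the other strains. Cre10.g420350.t1.1 changed by -0.74, against -1.83 to -1.70, Cre12.g486300.t1.1 by -0.94, against -1.78 to -1.68, and Cre16.g687900.t1.1 by -0.62, against -1.51 to -1.39. The 6 h level in crr1dCys was 1210 RPKM for Cre12.g486300.t1.1 (645 to 734 RPKM elsewhere), 1100 RPKM for Cre03.g165100.t1.1 (613 to 675 RPKM) and 646 RPKM for Cre12.g508750.t1.1 (329 to 373 RPKM). At 0.5 h, Cre12.g560950.t1.1 had 1290 RPKM in crr1dCys and 1110 to 1130 RPKM elsewhere.

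CC-124 stood apart for Cre09.g392350.t1.1, with 1660 RPKM in light-oxic culture (947 to 996 RPKM in the crr1-derived strains) and 1800 RPKM at 0.5 h (931 to 1040 RPKM). Cre08.g380250.t1.1 had 1020 RPKM in light-oxic CC-124 and 1570 to 1640 RPKM in the others. Cre08.g378376.t1.1 had 985 RPKM in light-oxic CC-124 (293 to 396 RPKM) and 307 RPKM at 6 h (77.6 to 91.0 RPKM). At 6 h, CC-124 had 13.5 RPKM of Cre02.g080600.t1.1 (1.39 to 2.56 RPKM) and 12.2 RPKM of Cre09.g407600.t1.1 (2.54 to 3.27 RPKM). Light-oxic crr1:CRR1 had 1720 RPKM of Cre16.g687900.t1.1 (1890 to 1920 RPKM elsewhere), and crr1 at 6 h had 11.6 RPKM of Cre12.g554100.t1.2 (0.889 to 2.51 RPKM).

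In 2 of the 28 named members the small change at 0.5 h had opposite signs with and without full-length CRR1. How often models at large split this way was not counted, so this number has no background, and the difference was not tested. The SD over members of the difference between repeat columns was 0.22 to 0.49 log2 units, without crr1:CRR1 at 6 h. Cre01.g024450.t1.1 changed by 0.04 and 0.05 in crr1dCys and crr1, and by a mean of -0.26 in crr1:CRR1 and CC-124. Cre02.g122400.t1.1 changed by -0.06 and -0.25 in crr1dCys and crr1, and by a mean of 0.10 in crr1:CRR1 and CC-124.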

How the results depend on the processing

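The rule gave 319 members with a pseudocount of 0.1, 186 of them shared with the 194, and 90 with a pseudocount of 5, 87 of them shared. The other settings gave 152 to 254, and 237 with the 6 h TS4 column of crr1:CRR1 included, 179 of them shared. Models called lower at 6 h numbered 517 with a pseudocount of 5, against 1019, and 963 without the replicate block of strains. In the TS4 columns 104 members were lower by at least 2 log2 units, against 6.52% of all models. The count of 93 members with less change in crr1dCys and crr1 was 81 to 102 under the other settings that keep all 4 strains.

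Members lower in the crr1-derived strains than in CC-124 numbered 19 and 6 with pseudocounts of 0.1 and 5, 5 and 7 after median of ratios and quantile scaling, 7 with TS2 alone, 1 without a replicate or stage block, and 7 to 17 with a strain or stage left out. Members higher numbered 10, 3, 10 with TS2 alone and 2 without the block, against 6. For crr1 against crr1:CRR1, 0 members were higher without a filter, with all columns and without the block, and 0 to 1 with a strain or stage left out. For crr1dCys against crr1:CRR1, 1 was higher with a pseudocount of 0.1, without a filter, with all columns, with the log2 of mean columns and with TS1 alone, 0 with a pseudocount of 5 and without the block, and 0 to 4 with a strain or stage left out. The cause was not tested. Of 391 alternative 6 h changes of named members 0 changed sign, and of 173 strain differences 32 lost the call and 0 changed sign. With 1 sample for each strain and stage, changes of single strains have no replicate error.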
